A study of Mus musculus with 6 samples.

Results

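The 47 genes for the subunits of the glutamate and GABA receptors were described across the AGO2 clusters and miRNA target clusters of newborn mouse brain. They were taken by symbol from the 21900 protein-coding genes of mouse RefSeq on mm10, and comprised 4 AMPA, 5 kainate, 7 NMDA and 2 delta subunit genes, 8 metabotropic glutamate receptor genes, 19 GABA-A subunit genes and 2 GABA-B subunit genes. AGO2 binding had been measured by chimeric eCLIP of postnatal day 0 (P0) brain, a form of UV crosslinking and immunoprecipitation (IP) in which some reads join a miRNA to the RNA it was bound to. There was 1 library from WT and 2 from *Mov10* Deletion mice, each with a size-matched input. All mice had the C57Bl/6J background. The *Mov10* Deletion mouse came from crossing a conditional knockout with a *Mov10* heterozygous mutant. The conditional knockout was made from *Mov10* fl/fl mice, with loxP sites around exons 6 and 7, and *Emx1*-Cre mice. *Emx1*-Cre acts in cortical and hippocampal excitatory neurons and their progenitors, so other cells of the brain kept *Mov10* from any intact allele, and the whole brain was sampled. MOV10 is an RNA helicase that binds AGO2 and mRNA.

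Glutamate and GABA carry most fast excitation and inhibition in the brain. AMPA, kainate and NMDA receptors are glutamate-gated cation channels built from several subunits, GABA-A receptors are chloride channels built likewise, and the metabotropic glutamate and GABA-B receptors act through G proteins. AGO2 holds a miRNA and brings it to target RNAs, mostly through pairing of the miRNA's seed (bases 2 to 8) with the 3’UTR, and the set of subunits that neurons express changes around birth.

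Values below that come in threes are in the order WT, *Mov10* Deletion replicate 1, *Mov10* Deletion replicate 2. The libraries held 359172, 616014 and 616005 AGO2 clusters. The *Mov10* Deletion libraries shared 614927 of them with identical limits, so that their cluster positions are not independent and only enrichment was measured in each. In the receptor genes, 11049 of 11057 clusters were shared in this way, and none had the same limits as a WT cluster. Enriched clusters were those whose deposited log2 of IP over input and deposited −log10 p both reached 3. Total depth is unknown. The reads behind a cluster were inferred, by looking for the whole read numbers in IP and input that give both deposited values. Among enriched clusters in receptor genes the median was 45, 14 and 12 inferred IP reads, and the fewest that could pass over 1 input read were 16, 9 and 8. Calls in the *Mov10* Deletion libraries therefore rested on fewer reads, and with 1 WT library no test between genotypes was made. The targeted gene, *Mov10*, had 1 enriched cluster in WT (log2 of 4.0) and 0 in either *Mov10* Deletion library (highest log2 2.80 and 2.84). As a check of the tissue, 9 of 9 neuron markers and 5 of 5 markers of radial glia and astrocytes had AGO2 clusters in every library, with enriched clusters in 3, 7 and 6 and in 1, 4 and 3 of them. Of 11 markers of liver, heart, pancreas, skin and blood, 9 had no cluster in any library, and *Hba-a1*, a haemoglobin gene, was enriched in WT and *Mov10* Deletion replicate 1.

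AGO2 clusters lay in 41 of the 47 receptor genes. The other 6 were *Gabra6*, known from cerebellar granule cells, *Gabrd*, *Gabrp*, *Gabrr1*, *Gabrr2*, and *Grm6*, the receptor of retinal bipolar cells. The share of all protein-coding genes with any AGO2 cluster was not counted. Transcript levels were not analysed here, and in whole brain, fewer cells of a type and less RNA per cell cannot be told apart. Receptor genes held 6231, 11057 and 11057 clusters, of which 87, 463 and 243 were enriched. Those are shares of 1.40% (95% interval 1.12 to 1.72), 4.19% (3.82 to 4.58) and 2.20% (1.93 to 2.49), against 2.06%, 5.14% and 3.08% of the clusters in all protein-coding genes. The share of clusters that passed was thus lower in receptor genes than in protein-coding genes as a whole, in all 3 libraries. The comparison was not matched for gene length or region. Within receptor genes 1.28%, 3.99% and 2.12% of the clusters in introns passed, and 5.64%, 10.5% and 5.57% of those in 3’UTRs. Intervals throughout are of the exact Clopper-Pearson kind, which covers counting error alone and takes each counted item as independent. Of the enriched clusters, 39, 268 and 135 lay in stretches of several adjoining ones, so intervals on clusters may be too narrow.

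At least 1 enriched cluster was found in 18 (38.3%), 33 (70.2%) and 31 (66.0%) of the receptor genes, and 30 genes had one in both *Mov10* Deletion libraries (63.8%). The same held for 12.5%, 29.3%, 23.0% and 17.4% of all protein-coding genes. Receptor genes are long, with a median of 183 kb against 17.5 kb for protein-coding genes, and longer genes held more clusters. Against genes of at least 100 kb the gap was smaller. Of the 26 receptor genes of that length, 15 (57.7%), 23 (88.5%), 24 (92.3%) and, in both *Mov10* Deletion libraries, 23 (88.5%) had an enriched cluster. Of all protein-coding genes of that length, 36.8%, 74.0%, 64.3% and 58.1% did. The 95% intervals of the receptor genes were 36.9 to 76.6, 69.8 to 97.6, 74.9 to 99.1 and 69.8 to 97.6. That of replicate 1 held the share of all such genes, and that of WT began just above it. Length was not matched within that class. Across the 47 genes Spearman's rho between gene length and the number of AGO2 clusters was 0.92, 0.94 and 0.94, and with enriched clusters 0.47, 0.75 and 0.74, given as descriptions over genes that share a library.

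**Figure D1:**
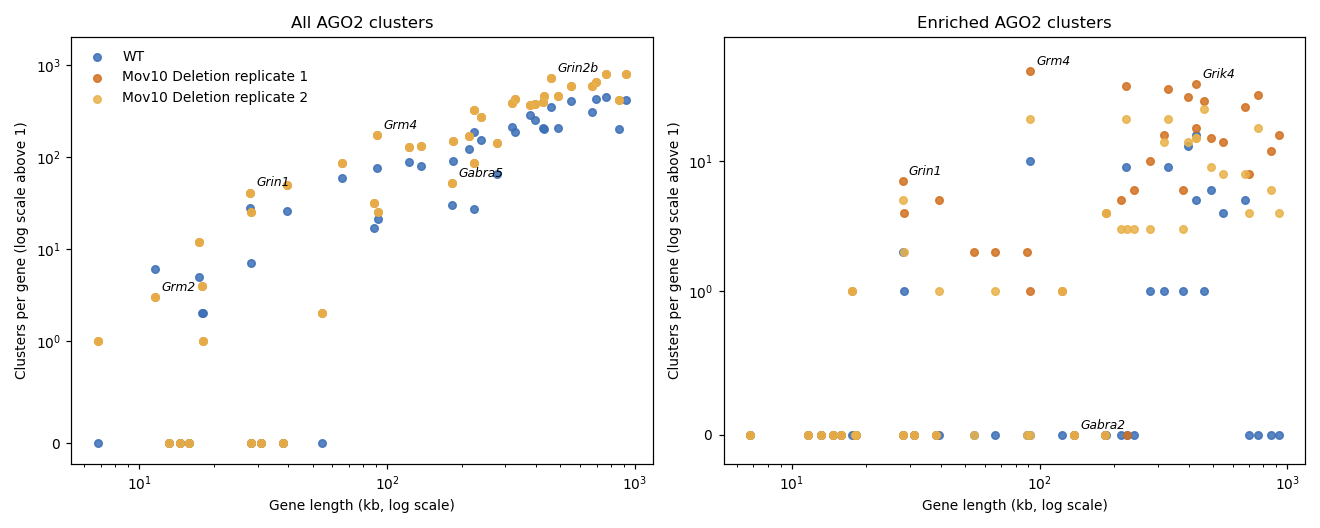
All AGO2 clusters (left) and enriched ones (right) per receptor gene (vertical axis, log scale above 1) against gene length in kb (horizontal axis, log scale), with 1 point per gene and library and the *Mov10* Deletion points coinciding on the left. All AGO2 clusters rise with length, and the points of 42 genes are shown.

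miRNA target clusters, which are clusters of chimeric reads, were in 30 (63.8%), 35 (74.5%) and 29 (61.7%) of the receptor genes. They were in 28.5%, 34.1% and 24.1% of all protein-coding genes. Among genes of at least 100 kb, 23 (88.5%), 26 (100%) and 23 (88.5%) of the 26 receptor genes had one, against 63.1%, 74.1% and 61.4% of all such genes. Length was not matched within that class. In number there were 187, 357 and 152 target clusters in receptor genes, and since some name several miRNAs they made 205, 379 and 157 assignments of a miRNA to a gene. Target clusters were found in all 3 libraries in 26 of the genes, in 2 libraries in 6 and in 1 library in 4, and 11 genes had none. The same count across libraries was not made over all protein-coding genes.

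miR-124-3p, the most abundant miRNA of neurons, led the assignments with 81, 133 and 61 (39.5%, 35.1% and 38.9%). Its share of all assignments in these libraries was 42.2%, 34.8% and 36.8%, so its part in receptor genes was near that of the transcriptome. miR-466i-5p came next with 28, 31 and 20 assignments, or 13.7%, 8.18% and 12.7%, where it made up 4.14%, 5.48% and 5.90% of the libraries' assignments. A run of at least 5 TG dinucleotides on the transcript strand was present in 18, 18 and 11 of these target clusters of miR-466i-5p. The same run was in 7 (3.95%), 9 (2.59%) and 5 (3.65%) of the 177, 348 and 137 assignments to other miRNAs. miR-466f-3p, from the same miRNA cluster, had 8, 14 and 3 assignments, and a run of at least 5 CA dinucleotides was in 6, 11 and 3 of them. These runs are a description of the sequence only, and whether the miRNAs pair with them was not tested. miR-9-5p, a miRNA of neural progenitors and neurons, had 15, 21 and 8 assignments, and miR-125b-5p had 14, 21 and 3. In *Mov10* Deletion replicate 2 let-7b-5p followed miR-9-5p with 5 assignments, and miR-128-3p and miR-181a-5p had 3 each. The let-7 family as a whole took 11, 39 and 12 assignments (5.37%, 10.3% and 7.64%, against 9.59%, 9.86% and 8.78% of the libraries).

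A place counted as found in all 3 libraries where the target clusters of both *Mov10* Deletion libraries overlapped the WT one. Of all the assignments above, 22 pairs of a miRNA and a place were found in all 3 libraries, in 15 genes. Of these, 13 were of miR-124-3p, 3 of miR-466i-5p, 2 of miR-9-5p, 2 of miR-181a-5p, 1 of miR-181c-5p and 1 of miR-331-3p. By region, 13 lay in a 3’UTR and 9 in an intron. The same count was not made over all protein-coding genes. Target cluster positions of the *Mov10* Deletion libraries are not independent of each other, so these are not 3 separate findings of a place. The mature sequences of the recurrent miRNAs that were at hand are shown from RefSeq with the seed in capitals. miR-181a-5p and miR-181c-5p share their seed, so a site for either is a site for both.
miR-9-5p: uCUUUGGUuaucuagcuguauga
miR-181a-5p: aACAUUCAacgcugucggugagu
miR-181c-5p: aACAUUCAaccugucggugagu
miR-331-3p: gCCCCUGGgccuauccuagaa

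The WT target clusters of these 4 miRNAs that recurred were searched for the reverse complement of the seed, and 5 places had a match of 7 bases or, failing that, 6 bases. Each is shown on the transcript strand with the match in capitals, since these are the letters that the miRNA above could pair with. Positions are of the match in GRCm39, found by its distance from promoter sequences that flank the gene in both builds. A match is a description of the sequence only.
Gabbr1, miR-331-3p, chr17:37384356-37384362, plus strand: cttaaatgttgcttcttCCAGGGGactc
Gria2, miR-9-5p, chr3:80594061-80594066, minus strand: ataataaatgctagaatgACCAAAttgc
Gria4, miR-9-5p, chr9:4420144-4420149, minus strand: atcggacctaccataaaaACCAAAaaat
Grin2b, miR-181a-5p and miR-181c-5p, chr6:135707608-135707614, minus strand: attgtaccactcgacagTGAATGTgctt
Grm5, miR-181a-5p, chr7:87780504-87780510, plus strand: tttgattcaccaaacatTGAATGTacat

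*Gria2* encodes the AMPA subunit that blocks calcium entry once its RNA is edited. Its 3’UTR held the recurrent place with the highest score in WT and *Mov10* Deletion replicate 1, for miR-124-3p, at mm10 chr3:80688480-80688618 in WT, 7099 nt from the gene's 3’ end. The authors' score, which the sources used here do not describe, was 55.1, 49.0 and 18.8. AGO2 clusters over it had a log2 of 2.32 (166 inferred IP and 28 input reads), 3.03 (178 and 38) and 3.27 (117 and 29). So the place passed the enrichment threshold in both *Mov10* Deletion libraries and fell short in WT, with values within 1 log2 unit of each other. The miR-9-5p site shown above lay in a target cluster of the same 3’UTR, with scores of 47, 44.9 and 17. AGO2 itself was not enriched there, with a log2 of −0.45, 0.96 and 0.94.

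*Grin2b* encodes the NMDA subunit that predominates before birth. Its 3’UTR is 18865 nt in its longest annotated form, and near its upstream end, 17368 nt from the gene's 3’ end, miR-181a-5p had scores of 49.4, 45.7 and 30.6 and miR-181c-5p of 13.0, 24.8 and 6.0. In the WT library AGO2 formed 1 broad cluster of 186 nt there, with a log2 of 2.81 on 207 inferred IP and 25 input reads. Over it both *Mov10* Deletion libraries had 6 adjoining clusters, with a log2 of 2.19 to 5.23 in replicate 1 and 2.82 to 7.38 in replicate 2, of which 3 and 5 were enriched. The highest in both was a cluster of 19 nt at mm10 chr6:135730618-135730636, with a log2 of 5.23 (129 and 6 reads) and 7.38 (70 and 1 reads). The cluster limits differ between the genotypes, so these values do not cover the same nucleotides. miR-466i-5p recurred just downstream in the same cluster of WT, with scores of 6.87, 9.92 and 12.9.

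**Figure D2:**
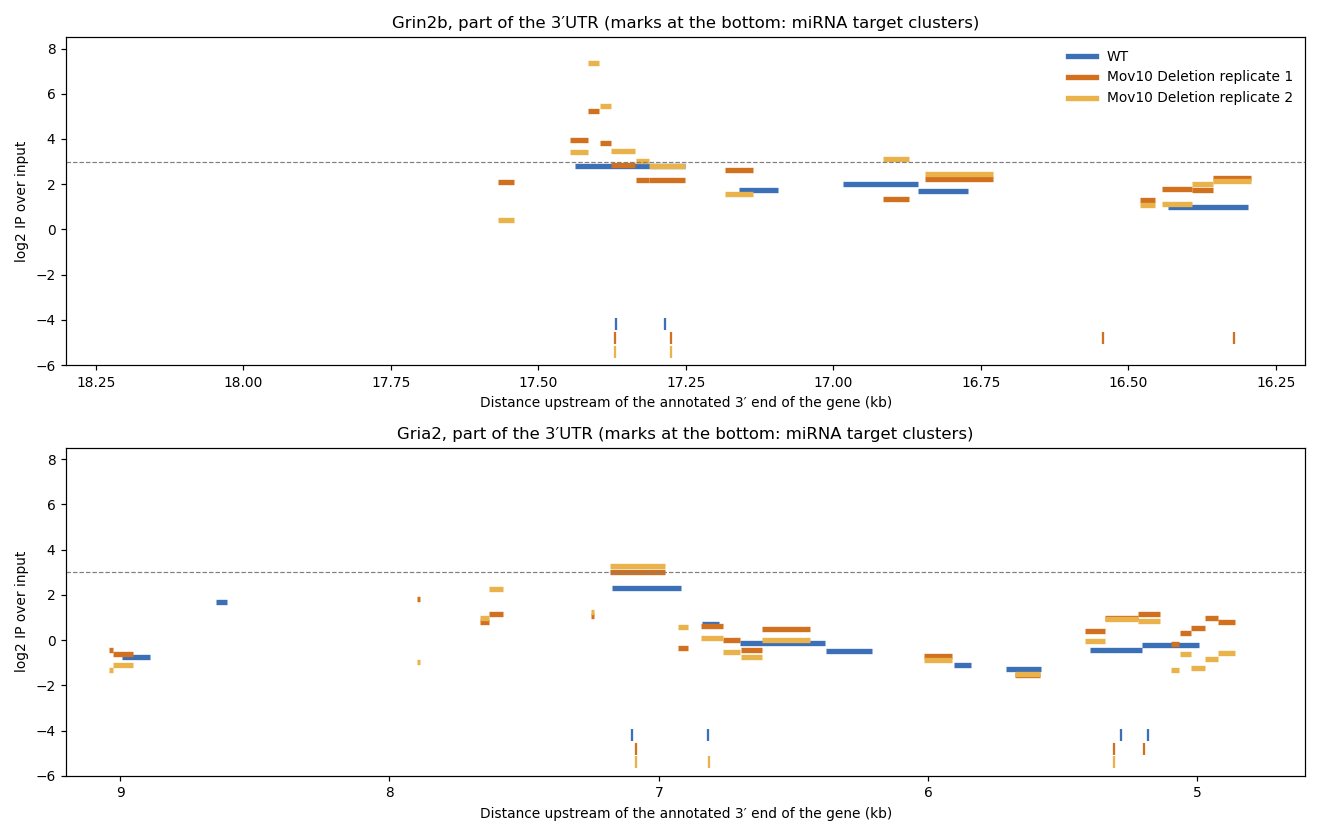
AGO2 clusters along the 3’UTRs of *Grin2b* and *Gria2* in each library: the horizontal axis is the distance upstream of the gene's 3’ end, the vertical axis the deposited log2 IP over input, segments are AGO2 clusters and marks are miRNA target clusters. In *Grin2b* the highest segments, at 5.23 and 7.38 in the *Mov10* Deletion libraries, lie at the miR-181 target clusters, and in *Gria2* the clusters at the miR-124-3p place lie between 2.32 and 3.27. The dashed line is the enrichment threshold of 3.

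In *Grm5*, a G protein-coupled receptor that raises intracellular calcium, the miR-181a-5p place had scores of 5.7, 7.0 and 3.0 and a log2 of 1.96, 2.15 and 2.15, none of them enriched. miR-124-3p recurred close by in the same 3’UTR (19.6, 4.64 and 5.18) and in an intron, where AGO2 had a log2 of 3.22, 4.26 and 4.25. In the intron WT had only 11 inferred IP reads over 1 input read, which did not pass the p threshold. *Gria3* had a miR-124-3p place 2069 nt from its 3’ end, with scores of 38.6, 9.33 and 21.0 and a log2 of 3.0, 2.73 and 2.33. There WT passed at the threshold on 19 inferred IP reads and the *Mov10* Deletion libraries fell below it. At the *Gria4* miR-9-5p site the log2 was 3.08, 2.00 and 2.03, and WT alone passed, on 30 inferred IP reads. *Gabbr1*, the GABA-binding GABA-B subunit, had a miR-331-3p place with scores of 25.0, 5.7 and 4.45 and a log2 of 1.47, 1.27 and 0.47, so AGO2 was not enriched in any library. In *Mov10* Deletion replicate 1 that target cluster did not hold the site shown. The clusters of the *Mov10* Deletion replicates each overlapped the WT one there, but not each other. *Grik3*, a kainate subunit, had a pair of adjoining miR-466i-5p places in its 3’UTR, with scores of 14.0, 10.3 and 6.63 at one and 10.3, 8.91 and 5.92 at the other, again without enrichment.

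Among the recurrent places, 11 of 22 overlapped an enriched AGO2 cluster in at least 1 library and 2 did so in all 3. Both were intronic and of miR-124-3p. The place in *Grin2b* (chr6:136034170-136034271 in WT) had scores of 26.6, 42.4 and 17.7 and a log2 of 3.98, 4.32 and 4.92. The place in *Gabrg3*, a GABA-A gamma subunit gene, at chr7:57316909-57316996, had scores of 8.85, 12.8 and 5.0 and a log2 of 5.04, 4.38 and 3.84. They lay 320999 and 600489 nt from the 3’ end of their genes. An intronic miR-124-3p place in *Grik1* had a log2 of 3.15, 2.58 and 2.25. The intronic places of miR-124-3p in *Gabrb2*, *Gria1*, *Grm3* and *Grm7* had scores between 3 and 10, and of these genes *Grm3* alone reached enrichment there, in *Mov10* Deletion replicate 2 with a log2 of 3.84 on 12 inferred IP reads.

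**Figure D3:**
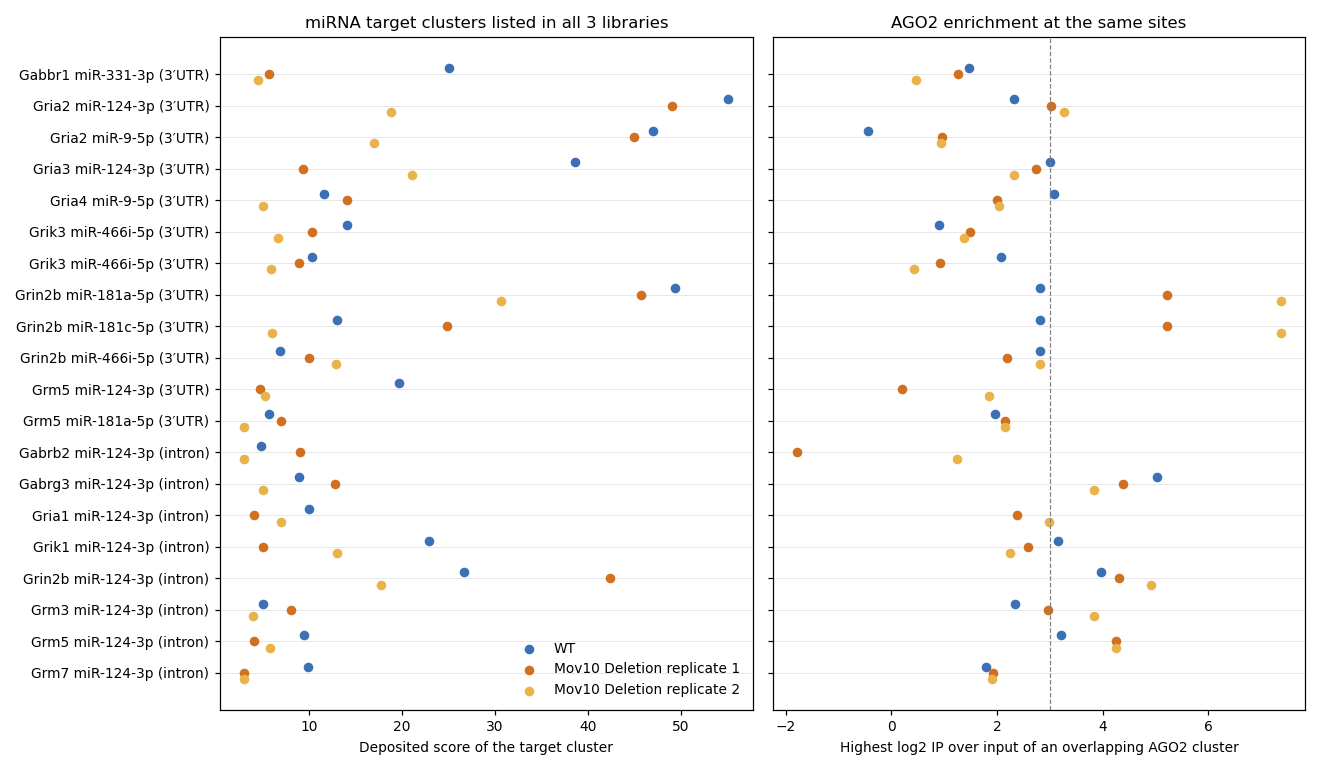
Places in receptor genes (20 of the 22) where target clusters of the same miRNA in both *Mov10* Deletion libraries overlapped the WT one. The deposited score is on the left. The highest log2 IP over input of an overlapping AGO2 cluster is on the right, with a dashed line at the enrichment threshold of 3. There is 1 point per library and none where no AGO2 cluster overlapped. A high score could occur without enrichment, since *Gria2* miR-9-5p had a score of 47 in WT at a log2 of −0.45.

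Recurrence of assignments was higher in 3’UTRs than in introns, with intervals that overlap for WT and do not for *Mov10* Deletion replicate 1. Of the WT assignments, 60 of 205 (29.3%) overlapped one of the same miRNA in *Mov10* Deletion replicate 1. By region these were 41.9% (29.5 to 55.2) in 3’UTRs and 24.2% (17.2 to 32.5) in introns. From *Mov10* Deletion replicate 1 to WT it was 63 of 379 (16.6%), with 40.6% (28.9 to 53.1) in 3’UTRs and 11.3% (7.88 to 15.5) in introns. Between WT and replicate 2 it was 28 of 205 (13.7%) and, from replicate 2, 28 of 157 (17.8%). The *Mov10* Deletion replicates shared 25 with each other, 6.60% of those in replicate 1 and 15.9% of those in replicate 2. All 25 had identical limits in both replicates, whereas no target cluster shared with WT did, so target cluster positions were not independent in the *Mov10* Deletion libraries either, and these overlaps are not comparable with those to WT. Over all protein-coding genes 33.5% of the WT assignments overlapped one of the same miRNA in replicate 1 and 18.5% one in replicate 2. From replicate 1 the shares over all protein-coding genes were 24.5% to WT and 11.6% to replicate 2, and from replicate 2 they were 30.1% to WT and 26.5% to replicate 1, so each share was lower in the receptor genes. From WT the intervals of the receptor genes (23.1 to 36 and 9.27 to 19.1) held the share over all protein-coding genes. From both *Mov10* Deletion libraries the intervals lay below it. Gene length and region were not matched.

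The position of clusters was read against GENCODE vM39 gene models placed at the same distance from the flanking promoter sequences, where the 3’UTR of any coding transcript counted. 3’UTRs make up 1.62% of the nucleotides of the receptor genes and introns 97%. miRNA assignments per 100 kb numbered 30.1, 33.5 and 16 in 3’UTRs and 1.07, 2.38 and 0.958 in introns. Enriched clusters numbered 5.35, 16.5 and 8.75 per 100 kb in 3’UTRs and 0.617, 3.42 and 1.82 in introns. For all AGO2 clusters the densities were 94.8, 157 and 157 against 48.3, 85.7 and 85.7. The 3’UTR density thus exceeded that of introns in each library, and most for the assignments. Yet the introns are so long that they held most of each kind, with 76 of 87, 421 of 463 and 224 of 243 enriched clusters, and 132 of 205, 293 of 379 and 118 of 157 assignments. In WT 62 assignments (30.2%, interval 24 to 37) lay in 3’UTRs, compared with 69 (18.2%, 14.5 to 22.5) and 33 (21.0%, 14.9 to 28.2). miR-124-3p had a smaller part of its assignments in 3’UTRs (17.3%, 14.3% and 14.8%) than the other miRNAs together (38.7%, 20.3% and 25.0%), although the intervals overlap in both *Mov10* Deletion libraries. An enriched AGO2 cluster lay under 27.4%, 17.4% and 15.2% of the assignments in 3’UTRs, and under 8.33%, 5.12% and 5.08% of those in introns. The last 5000 nt of the genes held 12.6%, 6.48% and 4.53% of the enriched clusters.

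**Figure D4:**
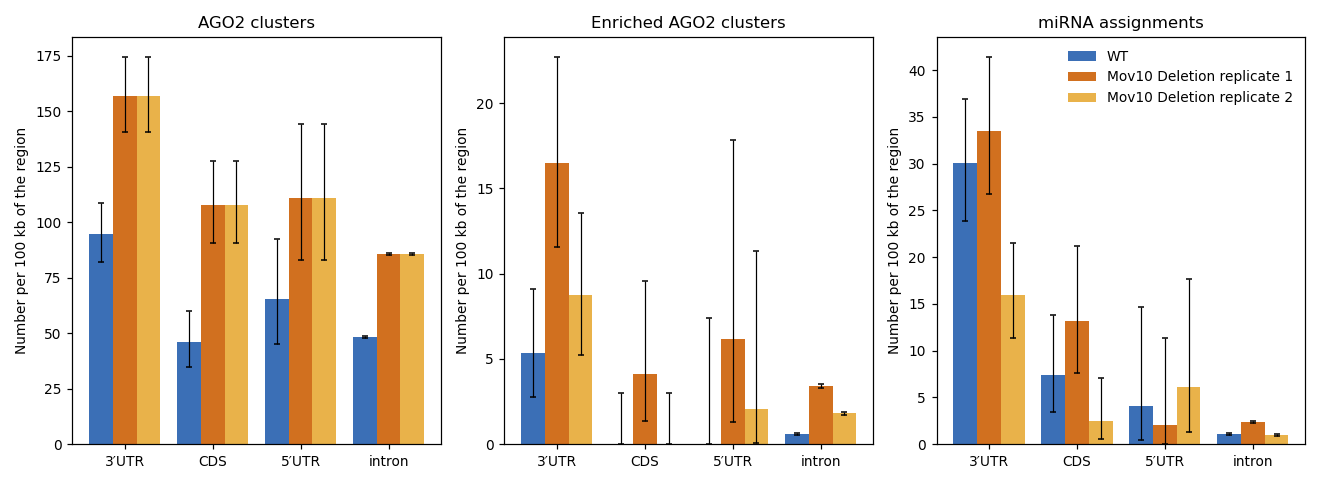
Density of AGO2 clusters, enriched AGO2 clusters and miRNA assignments in receptor genes by region (number per 100 kb of the region), with 1 bar per library and error bars for the exact 95% interval of the share of clusters in that region, on the same scale. 3’UTRs have the highest density in all 3 panels, with 30.1, 33.5 and 16 miRNA assignments per 100 kb.

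Seed matches were searched for in the target clusters of the miRNAs with a sequence at hand, which leaves out miR-124-3p and miR-466i-5p. A match of 7 bases was in 39 of 80, 51 of 187 and 15 of 71 of these assignments (48.8%, 27.3% and 21.1%). Those in WT held one more often than those in the *Mov10* Deletion libraries. Neither the width of target clusters nor the mix of miRNAs and regions was held equal in this count. All assignments together named 44, 91 and 53 miRNAs, and 30.2%, 18.2% and 21.0% of them lay in 3’UTRs. Whether the mix accounts for the difference was not tested.

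The AMPA subunit genes held 3, 33 and 21 enriched clusters. *Gria1*, whose subunit is inserted into synapses during potentiation, had 1, 16 and 14, none of them in its 3’UTR, and 16, 19 and 9 assignments, of which 7, 6 and 4 were to miR-124-3p. *Gria2* had 0, 1 and 1, all at the miR-124-3p place described above, with 13, 14 and 6 assignments. *Gria3* had 1, 10 and 3 enriched clusters with 1, 3 and 2 assignments, and *Gria4*, common in interneurons, had 1, 6 and 3 with 4, 7 and 8. Of the assignments in *Gria2*, 6 of 13, 8 of 14 and 6 of 6 lay in the 3’UTR.

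NMDA receptors need the subunit of *Grin1*, a gene of 28 kb with 2, 7 and 5 enriched clusters. Its strongest cluster lay in an intron at chr2:25303827-25303910 in WT (log2 of 4.28, 138 inferred IP and 6 input reads). Both *Mov10* Deletion libraries had 4 enriched clusters over it, the highest at chr2:25303867-25303901 with a log2 of 8.27 (177 and 1 reads) and 7.68 (86 and 1 reads). No miRNA was assigned there, and these were the highest log2 values of any receptor gene in the *Mov10* Deletion libraries. *Grin2a*, which rises after birth and replaces *Grin2b* in many receptors, had 5, 18 and 15 enriched clusters, of which 5 in every library lay in its long 3’UTR. The highest of them in WT was at chr16:9571526-9571692 (log2 of 4.46, 104 and 4 reads), and *Mov10* Deletion replicate 2 had an enriched cluster at 9571559 to 9571688 (log2 of 3.62, 36 and 7 reads). At the same limits replicate 1 fell short of the threshold, with a log2 of 2.67 (44 and 12 reads). Assignments in *Grin2a* were 10, 19 and 6, with 9, 8 and 2 in the 3’UTR. *Grin2b* had 1, 29 and 25 enriched clusters and the most assignments of any receptor gene, 28, 55 and 14. *Grin2d* had 0, 5 and 1 enriched clusters with 0, 1 and 1 assignments, and *Grin3a*, which lowers calcium entry, had 0, 4 and 4 with 1, 2 and 0. *Grin2c* and *Grin3b* had at most 2 clusters each and no enriched one.

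The kainate genes had 38, 118 and 55 enriched clusters, which is 3.35%, 6.43% and 3.0% of their clusters. *Grik4*, which encodes a high-affinity subunit that needs a partner, had 16, 39 and 15. *Grik3* had 9, 38 and 21 and *Grik1* 13, 31 and 14. In *Grik1* they gathered in part of an intron, where WT had 8 adjoining enriched clusters over 1154 nt (87900887 to 87902040 of chromosome 16) and *Mov10* Deletion replicate 1 had 14 over 1258 nt (87900783 to 87902040). In replicate 2 the same part held shorter stretches, of which the longest was 315 nt. Inferred IP reads in the WT stretch ran from 65 to 226 a cluster, above the median of enriched clusters. A miRNA, let-7b-5p, was assigned there in both *Mov10* Deletion libraries and none in WT. *Grik2*, of 696 kb, had 0, 8 and 4 enriched clusters but 17, 32 and 11 assignments, and *Grik5* had 0, 2 and 1 with 2, 4 and 2. Assignments in *Grik1*, *Grik3* and *Grik4* numbered 7, 10 and 9, then 14, 18 and 8, and then 2, 6 and 3.

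The delta receptors link presynaptic and postsynaptic membranes through cerebellins. *Grid1* had 449, 792 and 792 AGO2 clusters, of which 0, 32 and 18 were enriched. The highest in *Mov10* Deletion replicate 1, with a log2 of 5.44 on 25 inferred IP reads, lay in *Mir346*. That miRNA gene is within *Grid1* on the same strand. *Grid1* had 7, 14 and 11 assignments.

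Of the metabotropic glutamate receptors, *Grm4*, a presynaptic receptor that lowers cAMP, had the most enriched clusters, with 10, 49 and 21 in a gene of 91.4 kb. That was the most of any receptor gene in *Mov10* Deletion replicate 1. In introns lay 10, 46 and 20 of them, the highest shared one at chr17:27467721-27467866 in WT with a log2 of 4.93, and with 4.97 and 5.06 in the *Mov10* Deletion libraries, while only 1, 3 and 0 miRNAs were assigned to the gene. *Grm5* had 4, 14 and 8 enriched clusters. Its 4 in WT adjoined each other within a short part of an intron, at chr7:87979697-87979725, with a log2 of up to 7.01, the highest of WT (305 inferred IP and 2 input reads). The same part reached a log2 of 6.63 and 7.37 in the *Mov10* Deletion libraries, and no miRNA was assigned there. Replicate 2 had 208 inferred IP and 3 input reads. In replicate 1 −log10 p stood at its limit of 400, which does not fix the reads. These 4 WT clusters were 3 to 13 nt wide, whereas the other WT clusters enriched in all 3 libraries were at least 66 nt wide. Its cause was not tested. *Grm3*, *Grm7* and *Grm8*, which also lower cAMP, had none in WT, with 6 and 3, 16 and 4, and 12 and 6 in the *Mov10* Deletion libraries. Assignments were 7, 24 and 13 in *Grm5*, 7, 7 and 1 in *Grm3*, 7, 22 and 3 in *Grm7* and 2, 8 and 2 in *Grm8*. *Grm2* had 6, 3 and 3 clusters and none that was enriched.

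GABA-A genes had 12, 58 and 28 enriched clusters, 1.06%, 2.84% and 1.37% of their clusters. *Gabrg3* had 5, 26 and 8 of them and *Gabrb1* 6, 15 and 9, so that *Gabrg3* had more in *Mov10* Deletion replicate 1 alone. *Gabrb2*, the beta subunit common in the adult, had 0, 5 and 3. *Gabrq* had 0, 1 and 1. Of the alpha subunits, which set much of the drug response, *Gabra4* had 2 and *Gabra3* 3, each in a single *Mov10* Deletion library, and *Gabra2* and *Gabra5* had 0 in every library. *Gabrg1* and *Gabrr3* had 1 and 2, in *Mov10* Deletion replicate 1 alone. Assignments were 9, 17 and 6 in *Gabrg3*, 3, 8 and 5 in *Gabrb2* and 1, 9 and 6 in *Gabrb1*. *Gabra2* had 0, 3 and 1 and *Gabrq* had 1, 0 and 2. *Gabre* had at most 4 clusters and neither an enriched one nor an assignment.

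In the GABA-B pair the share of clusters that were enriched was the highest of all groups, with 5.18% (2.51 to 9.32), 8.79% (6.35 to 11.8) and 5.05% (3.23 to 7.49). These intervals overlapped those of the kainate genes in each library (2.38 to 4.57, 5.35 to 7.65 and 2.27 to 3.88). Most of the enriched clusters of the pair were in *Gabbr2*, the subunit that couples to G proteins, with 9, 36 and 21. Its 3’UTR held one that was enriched in all 3 libraries, at chr4:46663843-46664067 in WT, with a log2 of 3.76, 3.12 and 3.95. In WT miR-93-5p, miR-17-5p, miR-106b-5p and miR-9-5p were assigned there, of which miR-93-5p was assigned in *Mov10* Deletion replicate 1 as well. Replicate 2 had none of these there, but miR-124-3p and miR-434-3p. *Gabbr1* had 1, 4 and 2. Its 3’UTR held a cluster enriched in every library, at chr17:37073590-37073708 in WT, with a log2 of 3.30 (93 and 8 reads), 4.23 (108 and 10) and 4.10 (43 and 6). miR-16-5p was assigned to it in WT, together with miR-15a-5p, and in *Mov10* Deletion replicate 1, and no miRNA in replicate 2. Assignments were 8, 11 and 3 in *Gabbr1*, with 7, 7 and 2 in the 3’UTR, and 8, 18 and 3 in *Gabbr2*.

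**Figure D5:**
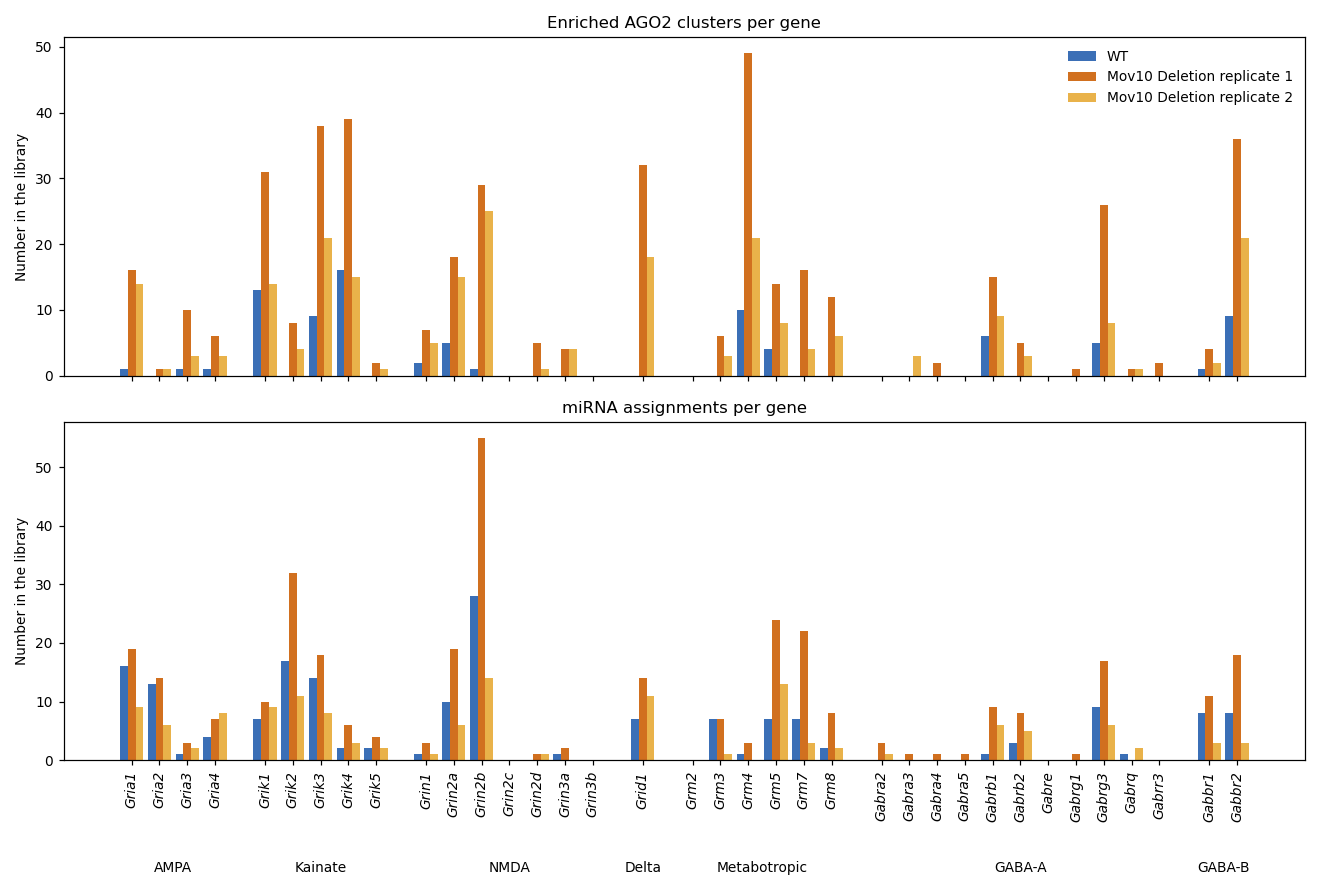
Enriched AGO2 clusters (top) and miRNA assignments (bottom) in 36 of the 41 receptor genes with an AGO2 cluster, grouped by receptor type, with 1 bar per library giving the number. *Grm4* reaches 49 enriched clusters with at most 3 assignments, whereas *Grin2b* reaches 55 assignments and *Grik2* has 32 with at most 8 enriched clusters.

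Genes with an enriched cluster in both *Mov10* Deletion libraries and none in WT numbered 12, among them *Gabrb2*, *Gabrq*, *Gria2*, *Grid1*, *Grik2*, *Grik5*, *Grin2d*, *Grin3a*, *Grm3*, *Grm7* and *Grm8*. That is 25.5% (13.9 to 40.3) of the receptor genes, against 7.68% of all protein-coding genes. Among genes of at least 100 kb it was 8 of 26 receptor genes, or 30.8% (14.3 to 51.8), against 24.7% of all. No receptor gene had one in WT alone, which held for 0.675% of all protein-coding genes and 0.579% of those of at least 100 kb. With at least 16 inferred IP reads asked of every library, the fewest that can pass in WT, the counts of enriched clusters became 87, 182 and 73. The genes enriched in both *Mov10* Deletion libraries but not in WT were then *Gria2*, *Grid1* and *Grm3*, and *Gria3* and *Gria4* were among those with one in WT alone. The genes enriched in one genotype only thus changed with the reads asked for. In receptor genes, as over all protein-coding genes, the same clusters seldom passed in both *Mov10* Deletion libraries, although both were scored over nearly the same positions. Of the enriched clusters of replicate 1, 51 of 463 (11.0%) overlapped one enriched in replicate 2, and of those of replicate 2, 51 of 243 (21.0%) overlapped one of replicate 1. Over all protein-coding genes these shares were 13.2% and 22.0%. Where the cluster in replicate 1 stood over 1 inferred input read, as 192 of 463 (41.5%) did, 6 (3.12%) were enriched in replicate 2 too, compared with 45 of the other 271 (16.6%). In replicate 2 96 of 243 (39.5%) stood over 1 input read, and in WT 14 of 87 (16.1%). WT clusters were found again more often, with 48 of 87 (55.2%) overlapping an enriched cluster of replicate 1 and 40 of 87 (46.0%) one of replicate 2, against 55.7% and 43.9% over all protein-coding genes. WT clusters were wider, with a median of 129 nt for enriched ones against 45 and 52 nt, so each can meet several. How far width and depth set the counts per genotype was not tested.

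There were 32 WT clusters that overlapped an enriched cluster in both *Mov10* Deletion libraries, in 11 genes. They were 10 in *Grik1*, 4 each in *Grm4* and *Grm5*, 3 each in *Grik3* and *Grik4*, 2 each in *Gabbr2* and *Gabrg3*, and 1 each in *Gabbr1*, *Grin1*, *Grin2a* and *Grin2b*. Of these, 29 were intronic and 3 lay in a 3’UTR (*Gabbr1*, *Gabbr2* and *Grin2a*), and 11 had a target cluster over them in at least 1 library. The 32 are not all separate places, and the same count was not made over all protein-coding genes. Adjoining WT clusters in *Grik1* met the same *Mov10* Deletion cluster, and adjoining ones in *Grm5* had the same 305 inferred IP and 2 input reads. The enriched clusters of the *Mov10* Deletion replicates did not always overlap each other, as in *Grin2a*.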

How the data were processed

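AGO2 clusters and miRNA target clusters of 3 IP libraries were used as the authors deposited them. Before deposit the authors handled molecular identifiers with umi_tools 1.1.1, trimmed adapters (cutadapt 3.2), removed repeats and rRNA, mapped reads to mm10 (STAR 2.7.7a), discarded PCR duplicates and ran CLIPper to call clusters. The authors deposited IP over input as log2 and its p-value as −log10 p, which stops at 400. For chimeric reads the authors matched miRNAs (bowtie 1.2.3), mapped the rest and deposited each target cluster with a miRNA and a score of at least 3, whose meaning is not given in the sources used here. Whether *Mov10* Deletion clusters were called on both brains together is not stated there either.

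A cluster belonged to a gene if it lay inside its mm10 RefSeq body on the same strand. Strands, from mm10 promoter sequences or GENCODE vM39, were found for 21468 of 21900 protein-coding genes (98%) and all 47 receptor genes. No mm10 gene models were used here. GENCODE vM39 models were placed by their distance from promoter sequences of 300 nt found in both builds on either side, with equal spacing for all 47 genes, and a cluster took the region of its midpoint. Cluster coordinates are of mm10 and site coordinates of GRCm39, counted from 1. Reads were inferred from the deposited log2 and −log10 p, within 0.001 or 0.2% of the latter and up to 200 input reads, and found for 99.9%, 100% and 100% of enriched clusters of the libraries. Over all clusters of the libraries, enriched or not, reads were found for 80.5%, 82.9% and 84.1%. In 3 simulations of 20000 clusters, 100% of enriched clusters got their true reads. Of all simulated clusters 90.9%, 96.3% and 97.6% did. Simulated clusters check the search for reads alone, and how the authors computed the deposited p-value was not tested. A ratio of 1 IP read to 1 input read corresponds to a fold of 0.845, 1.74 and 2.39. Mature sequences were matched for 103 of the 119 miRNAs named in receptor genes.

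Genes were named if they had target clusters in at least 2 libraries or enriched clusters in all 3, in WT alone or in both *Mov10* Deletion libraries and not WT, or led their group. miRNAs were named if among the 5 most frequent of a library or recurrent in all 3, and others where they lay on a named cluster. Some items covered by this rule are not reported here, in the text or the figures. Members, lists and tests were chosen with earlier results of these data known. Alternatives covered the enrichment, width, read and score limits, overlap, windows, other genes, several miRNAs and each *Mov10* Deletion replicate.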

Additional observations from a re-analysis of the deposited data

How the results depend on the processing

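Of 112 alternative values for 16 results, 80 stayed within 1.5 times the count, or within the counting interval of the share, and 32 moved. Values are in the order WT, *Mov10* Deletion replicate 1, replicate 2. A minimum −log10 p of 5 left 182 and 108 enriched clusters in the *Mov10* Deletion libraries, 20 genes with one in replicate 2 and 17 in both, and 9.89% of the clusters of replicate 1 in the last 5000 nt. A minimum log2 of 4 left 24, 172 and 131 enriched clusters and 10 genes in WT, and a minimum of 2 gave 140 clusters in WT. A minimum of 16 inferred IP reads left 182 and 73 clusters in the *Mov10* Deletion libraries, 17 genes in replicate 2 and 16 in both, with 9.34% and 8.22% of the clusters in the last 5000 nt. Adjoining enriched clusters counted as 1, an alternative chosen after seeing the data, gave 303 clusters in replicate 1. The last 1000 nt held 3.45%, 1.73% and 0.823% of the enriched clusters and the last 10000 nt 26.4%, 11.2% and 11.5%. A score of at least 5 left 70, 121 and 40 target clusters and raised the miR-124-3p share in WT to 53.1%. On enriched AGO2 clusters alone there were 20, 22 and 9 target clusters, with miR-124-3p shares of 25.8% and 63.6% in the *Mov10* Deletion libraries. Without 1 of the *Mov10* Deletion replicates, genes with an enriched cluster ranged from 31 to 33. No value moved with a minimum width of 20 nt, 1 nt of overlap, other same-strand genes left out or single miRNAs.

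No paired analysis was possible because no result comes from a test and WT is 1 library. The genotypes cannot be told apart from library depth and cluster width, and 1 WT brain gives no spread. Regions come from GRCm39 gene models, and a cluster in the 3’UTR of any coding transcript counted as such, with a few in *Gria3* and *Gabbr2* far inside the gene.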

Other observations

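The auxiliary subunits, scaffolds and anchors of the same receptors, 39 genes, had AGO2 clusters in every library. An enriched cluster was found in 14 (35.9%), 31 (79.5%) and 26 (66.7%) of them, in the order WT, *Mov10* Deletion replicate 1, replicate 2. In both *Mov10* Deletion libraries 24 (61.5%) had one. An enriched cluster was in 12.5%, 29.3%, 23.0% and, for both, 17.4% of all protein-coding genes. For those of at least 100 kb the shares were 36.8%, 74.0%, 64.3% and 58.1%. The 39 genes ran from 3.58 to 1970 kb and were not matched for length. A miRNA target cluster was in 30, 30 and 28 of them, against 28.5%, 34.1% and 24.1% of all protein-coding genes. *Cacng4*, an AMPA receptor auxiliary subunit in a gene of 62.4 kb, had 18, 38 and 30 enriched clusters, more than any AMPA subunit gene, with 12, 10 and 8 miRNA assignments. *Cnih2*, another AMPA receptor auxiliary subunit, had 5, 7 and 2 enriched clusters in 5.65 kb, among 8, 9 and 9 clusters. *Shank2*, a scaffold of the postsynaptic density, had 13, 50 and 27, and *Dlg2*, which anchors NMDA receptors, had 14, 34 and 31 in 1970 kb. In contrast, *Dlg4*, *Cacng5*, *Cacng8*, *Neto2* and *Grip2* had none in any library. These genes were named after their values were seen.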
